A study of Homo sapiens with 6 samples.

Results

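The 10 heat shock chaperone genes HSPA1A, HSPA1B, HSPA8, HSPH1, HSP90AA1, HSP90AB1, DNAJB1, HSPB1, HSPD1 and HSPE1 were followed in the transcriptome of UWB1.289 cells. They were listed by name as chaperones of the cytosol and of the mitochondrial matrix, and no measured value entered the rule. The list was chosen with earlier results of these data known. All 10 symbols were found among the 63677 gene identifiers of the count table, and all 10 were among the 21729 genes with more than 10 counts in total that were tested. No member differed between Olaparib and DMSO at an adjusted p under 0.05, and the largest fitted difference was -0.049 on the log2 scale.

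UWB1.289 is a human ovarian cancer cell line that lacks functional BRCA1, although the sample labels give its genotype as WT. Poly(A) RNA was sequenced from 3 samples treated with 4 µM Olaparib, an inhibitor of the poly(ADP-ribose) polymerase PARP1, and from 3 samples that received the solvent DMSO, all collected after 24 h. The dose is that of the sample labels, whereas the design text of the series gives 10 µM. Both groups were the same line on the same medium, so the data show a single line, dose and time and no recovery of BRCA1. The samples are described as independent replicates, and nothing in the labels says that they came from separate days.

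Heat shock proteins bind unfolded or newly made proteins and keep them from aggregating. HSP70 proteins take up short exposed stretches of a client in a cycle driven by ATP, J-domain proteins such as DNAJB1 bring the client and start the hydrolysis of ATP, and HSP110 proteins such as HSPH1 exchange the nucleotide so that the client is released. HSP90 acts later on clients such as kinases and steroid receptors, small heat shock proteins such as HSPB1 hold unfolded proteins without ATP, and HSPD1 with its lid HSPE1 forms the folding chamber of the mitochondrial matrix. When unfolded proteins build up, the transcription factor HSF1 binds heat shock elements, arrays of the unit GAA and its inverse TTC, in the promoters of many of these genes.

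The promoter stretches that carry such arrays are shown because they are a sequence feature found in most of the members, independent of the counts. They came from the RefSeq promoter windows of GRCh38.p14, which were searched over the 250 bases before each transcription start, and capitals mark the GAA and TTC units. For each member only the window nearest its MANE start was used. HSP90AB1 and DNAJB1 have 3 windows each and HSP90AA1 and HSPD1 have 2 each, and their other windows are not described here. A pair of inverted units was defined as GAANNTTC or TTCNNGAA. Each of these reads the same on both strands, and overlapping pairs were counted separately. Only 1 cluster of pairs per window is printed, the one with the most pairs. The stretches therefore show 2 of 4 pairs for HSPA8, 2 of 3 for HSP90AA1 and 1 of 2 for DNAJB1. In each case the stretch is written 5′ to 3′ on the strand of the gene.
HSPA1A, plus strand, chr6:31815431-31815450: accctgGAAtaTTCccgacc
HSPA1B, plus strand, chr6:31827627-31827646: cccctgGAAtaTTCccgacc
HSPA8, minus strand, chr11:123062173-123062197: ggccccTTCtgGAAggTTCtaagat
HSP90AA1, minus strand, chr14:102087114-102087138: gggttcTTCcgGAAggTTCgggagg
DNAJB1, minus strand, chr19:14518431-14518450: gctctgGAAgcTTCcgccgg
HSPB1, plus strand, chr7:76302485-76302504: acgagaGAAggTTCcagatg
HSPD1, minus strand, chr2:197500062-197500090: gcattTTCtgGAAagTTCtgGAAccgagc

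At least 1 pair was found in 7 of the 10 windows, whereas 11.6% of the 35116 promoter windows of the table held one (GAANNTTC in 5.78% and TTCNNGAA in 6.62%). At least 3 alternating units in a row stood in the windows of HSPA8, HSP90AA1 and HSPD1, and in 0.441% of all windows. The stretches of HSPA1A and HSPA1B, a pair of neighbouring genes on chromosome 6, carry the same units and spacing. HSPD1 and HSPE1 are transcribed in opposite directions on chromosome 2, with 538 bases between the starts of their MANE transcripts. Other annotated transcripts make the gene spans overlap, and the HSPD1 array lies between the MANE starts. The pair nearest the HSPD1 start lies 228 bases upstream of it. With its flanks in lower case, the printed stretch begins 222 bases from the HSPD1 start and ends 289 bases from the HSPE1 start. It lies outside the window searched for HSPE1, and its far end is at the limit of the 250 bases searched for HSPD1. No pair was found in the windows used for HSPH1, HSP90AB1 and HSPE1, and the RefSeq start used for HSPH1 lies 484 bases from its MANE start. These matches describe letters in a window and say nothing of binding.

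The 6 libraries held 35360458 to 39640775 counts, and normalization factors lay close to 1. Replicates of 1 group differed by more than sampling noise, with a chi-square per degree of freedom of 1.81 to 4.11 over 15525 genes, so no sample was a copy of another. Of 7 epithelial markers (EPCAM, KRT7, KRT8, KRT18, KRT19, PAX8 and CDH1), all were well above the filter, with group means from 1299 normalized counts for CDH1 in DMSO to 151992 for KRT8 after Olaparib. Of the 6 markers of blood, vessel and stromal cells, PECAM1 and LUM were at 0 counts, CD3E and DCN had 6 and 4 counts in total, and CD68 and PTPRC had 56 and 403 counts, with neither differing between the groups at an adjusted p under 0.05. For CD68, 100% of the exonic bases are shared with other genes, 94.9% on the same strand, so its count depends on how shared reads were counted. Of the 7 epithelial markers 1, PAX8, was called (log2 fold change 0.10, adjusted p = 0.0399 by the quasi-likelihood (QL) test of edgeR, Benjamini-Hochberg adjusted), beside 3.36% of all genes. The log2 fold changes of the 7 ran from -0.039 for EPCAM to 0.14 for CDH1, with 5 above 0 and 2 below. The 5 above 0 each had an unadjusted p under 0.05 in edgeR's test, whereas 14.8% of all genes did. In bulk RNA, fewer cells with a transcript and less of it per cell cannot be told apart.

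Transcript levels are given as normalized CPM (counts scaled to a common library total) per kilobase of the MANE Select transcript, over all 6 samples. The other members stood far above the inducible HSP70 pair, HSPA1A and HSPA1B. HSPA8, the constitutive cytosolic HSP70, had the highest level at 1199 ± 21.7 (SD, n = 6), which was rank 43 of 20867 genes. The HSP90 genes followed, HSP90AB1 at 982 ± 11.5 and HSP90AA1 at 769 ± 14.1 (SD, n = 6). HSPD1 came next in level at 568 ± 6.71, before HSPB1 at 321 ± 11.9 and HSPE1 at 276 ± 7.07 (SD, n = 6). DNAJB1 had a level of 112 ± 2.37 and HSPH1 of 86.9 ± 1.40 (SD, n = 6). The lowest levels were those of HSPA1A, at 11.2 ± 0.66, and HSPA1B, at 10.2 ± 0.36 (SD, n = 6), at ranks 5483 and 5808. Each step down this order separated all 6 samples of a gene from all 6 of the next, except the last, where the ranges of HSPA1A and HSPA1B overlapped.

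**Figure D1:**
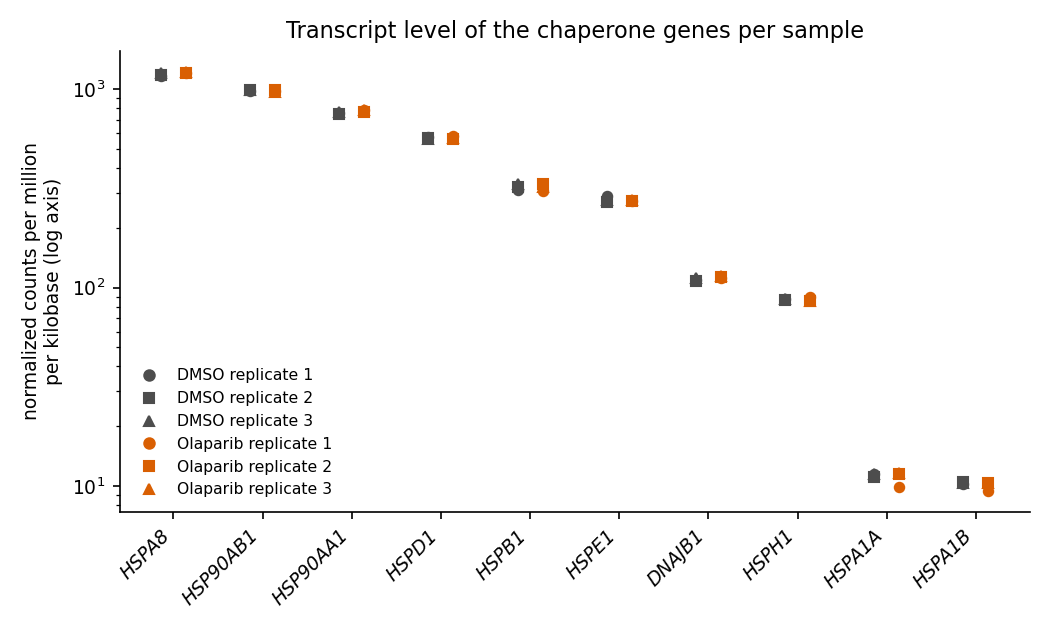
Level of each member in each sample, in normalized CPM per kilobase on a log axis, with DMSO samples in grey and Olaparib samples in orange, and 1 symbol per replicate number. The order runs from HSPA8 with a mean level of 1199 to HSPA1B with 10.2, and the 2 groups lie side by side at every gene.

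The levels of several members depend on how reads that match more than 1 gene were counted, which is not given in the sources used here. Of all words of 50 bases in the HSPA1A transcript, 75.1% also occur in HSPA1B, and 71.6% of those of HSPA1B occur in HSPA1A, so the levels of both are uncertain. Words shared with any other transcript made up 48.2% for HSPE1, 27.1% for HSPD1, 19.7% for HSP90AB1, 19.1% for HSP90AA1, 16.8% for HSPA8, 13.5% for HSPB1 and 2.6% for DNAJB1. HSPH1 shared none. HSPE1 also shares 34.5% of its exonic bases with the readthrough gene HSPE1-MOB4, which was listed at 0 counts in all samples. The whole count of HSPE1 divided by the 365 bases that are its own gave 422 ± 10.8 (SD, n = 6). That would place HSPE1 above HSPB1 instead of below it, but only if no read from the shared bases was counted for HSPE1. Whether any was is not known.

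All values in the following comparisons are TMM-normalized counts, in the order of replicates 1, 2 and 3. The inducible HSP70 genes are the usual readout of a heat shock response. HSPA1A (ENSG00000204389, chr6:31815543-31817946, GRCh38) was at 890, 1037 and 1039 normalized counts under Olaparib and at 1037, 993 and 1037 under DMSO. Olaparib replicate 1 was the lowest of the 6 samples and the other 5 lay together. The log2 fold change was -0.049 (SE 0.052, 95% interval -0.15 to 0.057, adjusted p = 0.739, edgeR's QL test, which allows for the spread between samples, as for all adjusted p values below). Without Olaparib replicate 1 it was 0.024.

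HSPA1B (ENSG00000204388, chr6:31827738-31830254) gave 893, 969 and 979 normalized counts with Olaparib and 964, 986 and 975 with DMSO. Here too Olaparib replicate 1 was the lowest sample, and the groups overlapped. Its log2 fold change was -0.042 (95% interval -0.14 to 0.054, adjusted p = 0.757), and 0.00065 without that replicate. The counts of both genes were also added, so that a split of shared reads between them no longer matters. Reads that match both and were left uncounted would still be missing from the sum. The sums were 1782, 2006 and 2018 normalized counts after Olaparib and 2001, 1980 and 2012 in DMSO (two-sided exact permutation p = 0.9, where 3 against 3 samples allow no p below 0.1).

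HSPA8 (ENSG00000109971, chr11:123057489-123063230), which folds and sorts proteins in unstressed cells, had 102197, 102123 and 103815 normalized counts in the Olaparib samples and 98711, 100289 and 102734 in the DMSO samples. The groups overlapped through DMSO replicate 3. The difference was 2.12% (95% interval -1.56% to 5.94%, adjusted p = 0.658). Per 100 counts of HSPA8, HSPA1A and HSPA1B together had 1.74, 1.96 and 1.94 counts after Olaparib and 2.03, 1.97 and 1.96 in DMSO. This ratio of the inducible to the constitutive genes within a library overlapped between the groups (two-sided exact permutation p = 0.2).

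The partners of HSP70 were DNAJB1 and HSPH1. DNAJB1 (ENSG00000132002, chr19:14514769-14560391) was at 9428, 9531 and 9573 normalized counts under Olaparib and at 9180, 9069 and 9406 under DMSO. All 3 Olaparib samples lay above all 3 DMSO samples, by a narrow margin between Olaparib replicate 1 and DMSO replicate 3. The log2 fold change was 0.045 (SE 0.029, 95% interval -0.013 to 0.10), with the smallest p of the 10 members in this fit and an adjusted p of 0.506 in edgeR's test. As a percentage the difference was 3.17% (95% interval -0.93% to 7.43%).

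HSPH1 (ENSG00000120694, chr13:31134973-31162388) gave 17508, 16779 and 16806 normalized counts with Olaparib and 17109, 16957 and 17195 with DMSO. The DMSO samples lay inside the range of the Olaparib samples. The log2 fold change was -0.0048 (95% interval -0.060 to 0.051, adjusted p = 0.959), and as a percentage the interval ran from -4.10% to 3.58%.

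HSP90AA1 and HSP90AB1 encode the inducible and the constitutive form of cytosolic HSP90. HSP90AA1 (ENSG00000080824, chr14:102080742-102139699) had 95041, 92681 and 94664 normalized counts in the Olaparib samples and 92162, 90455 and 92400 in the DMSO samples. As with DNAJB1, all Olaparib samples were above all DMSO samples, here too with a narrow gap, between Olaparib replicate 2 and DMSO replicate 3. For HSP90AA1 the fitted log2 fold change was 0.038 (95% interval -0.014 to 0.091, adjusted p = 0.537).

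HSP90AB1 (ENSG00000096384, chr6:44246166-44253888) was at 93517, 95030 and 92200 normalized counts under Olaparib and at 93377, 94604 and 94883 under DMSO. The groups overlapped, with the highest and the lowest sample both among those treated with Olaparib. The log2 fold change was -0.011 (95% interval -0.063 to 0.041, adjusted p = 0.901). The ratio of HSP90AA1 to HSP90AB1 counts was 1.02, 0.975 and 1.03 after Olaparib and 0.987, 0.956 and 0.974 in DMSO, and overlapped between the groups (two-sided exact permutation p = 0.2).

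HSPB1 (ENSG00000106211, chr7:76302673-76304295), the small heat shock protein also called HSP27, gave 8918, 9730 and 9310 normalized counts with Olaparib and 9011, 9391 and 9731 with DMSO. Both groups spread over nearly the same range, and replicate 1 was the lowest in each. The coefficient of variation was 4.36% after Olaparib and 3.84% in DMSO, the widest in DMSO among the 10 members. Its log2 fold change was -0.0092 (95% interval -0.076 to 0.057, adjusted p = 0.942).

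The chaperonin of the mitochondrial matrix showed no difference past the test in either subunit. HSPD1 (ENSG00000144381, chr2:197486584-197516737) had 48699, 47188 and 47540 normalized counts in the Olaparib samples and 48034, 47462 and 47331 in the DMSO samples. HSPE1 (ENSG00000115541, chr2:197500140-197503449) was at 5678, 5709 and 5748 normalized counts under Olaparib and at 6055, 5651 and 5743 under DMSO. In both genes the groups overlapped, and in HSPE1 DMSO replicate 1 stood above the other 5 samples. The log2 fold change was 0.0061 for HSPD1 (95% interval -0.047 to 0.059, adjusted p = 0.951) and -0.026 for HSPE1 (95% interval -0.092 to 0.040, adjusted p = 0.782). HSPD1 had 8.37 ± 0.18 counts per HSPE1 count after Olaparib and 8.19 ± 0.24 in DMSO (SD, n = 3 each, two-sided exact permutation p = 0.4).

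**Figure D2:**
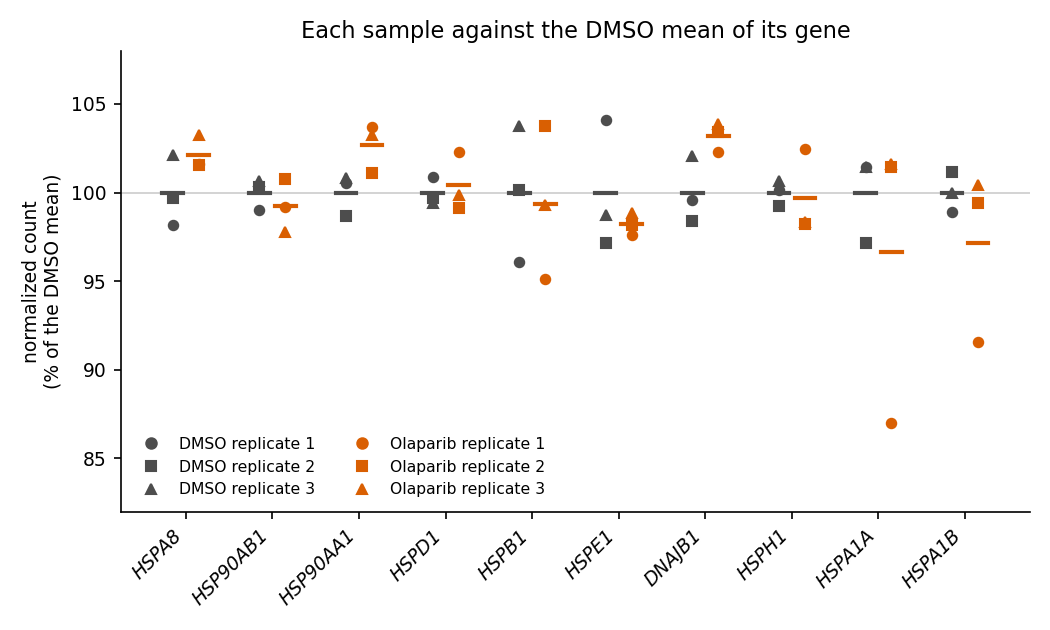
Normalized count of each member in each sample as a percentage of the DMSO mean of that gene, with short lines at the group means, on an axis that does not start at 0. Olaparib samples lie above all DMSO samples only in DNAJB1 and HSP90AA1, and the lowest points are Olaparib replicate 1 in HSPA1A and HSPA1B, at 890 and 893 normalized counts.

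Of the 10 members, edgeR's QL test called 0 at the adjusted threshold of 0.05, and 0 had an unadjusted p under 0.05. Over all genes tested, 3.36% were called, 2.15% as higher and 1.21% as lower after Olaparib, and 14.8% had an unadjusted p under 0.05. DESeq2 also gave 0 members at either threshold, while limma voom gave 0 adjusted and 1 unadjusted, HSP90AA1. With so few members, a share near the background would itself be less than 1 call.

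The fitted log2 fold change was above 0 in 4 members and below 0 in 6, with a median of -0.0070, beside a median of -0.0042 over all genes tested. In 2 of the 10, DNAJB1 and HSP90AA1, the groups did not overlap, and 19.3% of all genes had groups that did not. The members took 1.02% ± 0.0035 of the counts of a library after Olaparib and 1.01% ± 0.0053 in DMSO (SD, n = 3 each, two-sided exact permutation p = 0.5). In all, 7 such ratios and sums were compared, and their adjusted p values were 0.7 to 0.9.

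The precision behind these values was high. The 95% intervals of the 10 members reached at most from -0.15 to 0.10 on the log2 scale, which leaves out a change of log2(1.2), 0.263, in either direction for each of them. These intervals cover the spread between the samples of this experiment only. The median coefficient of variation was 1.58% after Olaparib and 1.51% in DMSO over the members. It was 2.91% and 2.51% over the 6919 genes with a mean at least as high as that of the lowest member, of which 408 (5.90%) were called. The median size of the log2 fold change was 0.028 over the members and 0.042 over those 6919 genes. Those genes share only this lower limit and were not matched to the members in level. HSPA1A and HSPA1B lie near the limit, with coefficients of variation of 8.66% and 5.00% after Olaparib and 2.47% and 1.15% in DMSO. The other members had group means of 5712 normalized counts or more. Whether members vary less than genes of equal level was not tested.

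**Figure D3:**
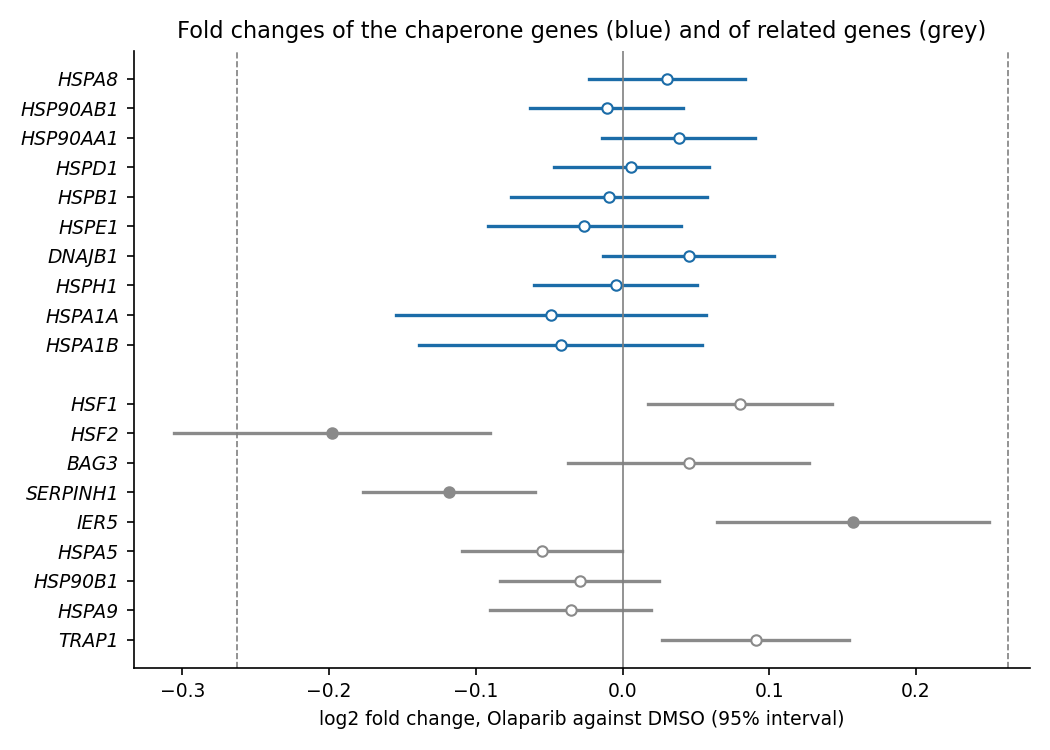
Log2 fold change of the 10 members in blue and of 9 related genes in grey, Olaparib against DMSO, with 95% intervals. Filled points had an adjusted p under 0.05 and dashed lines stand at a fold change of 1.2. All 10 blue intervals include 0 and stay inside the dashed lines, and the filled points are HSF2, SERPINH1 and IER5.

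The wider chaperone network was followed over 97 other genes in 10 lists, of which 92 were tested. At an adjusted p under 0.05 in edgeR's test, 1 was higher and 2 were lower after Olaparib, a share close to the 3.36% of all genes. The median log2 fold change of the 92 was 0.0092, and none passed a fold change of 1.2 together with the test. The 3 were IER5, HSF2 and SERPINH1.

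Of the heat shock factors, HSF2 passed the test and HSF1 and HSF4 did not. HSF2, which forms trimers with HSF1 and is known from development, gave 744, 645 and 699 normalized counts with Olaparib and 787, 772 and 835 with DMSO. Every Olaparib sample was below every DMSO sample. It was lower by a log2 fold change of -0.20 (SE 0.053, adjusted p = 0.0280), a call lost with DESeq2 (adjusted p = 0.0970). It was also lost without Olaparib replicate 2 (0.177), Olaparib replicate 3 (0.0838), DMSO replicate 1 (0.101) or DMSO replicate 3 (0.180), each an adjusted p of edgeR's test.

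HSF1, the factor that drives the response to heat, had 6810 ± 141 normalized counts after Olaparib and 6441 ± 98.2 in DMSO (SD, n = 3 each). All Olaparib samples lay above all DMSO samples, with a log2 fold change of 0.080 (95% interval 0.018 to 0.14, adjusted p = 0.172 in edgeR's test), and 6.42% of its exonic bases are shared with genes on the other strand. For HSF4 the log2 fold change was 0.036 (adjusted p = 0.936).

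Among 19 other genes known to rise with heat, 1 was higher and 1 was lower, beside 2.15% and 1.21% of all genes. IER5, a heat-inducible cofactor of HSF1 that is also known as an immediate early gene, had 1538, 1737 and 1683 normalized counts in the Olaparib samples and 1519, 1464 and 1464 in the DMSO samples. The groups were apart, with a narrow gap between Olaparib replicate 1 and DMSO replicate 1. It was higher by a log2 fold change of 0.16 (SE 0.046, adjusted p = 0.0473). Its adjusted p was 0.0710 with DESeq2 and 0.0516 with limma voom, and 0.0738 to 0.235 when any one sample other than Olaparib replicate 1 was left out, so it stood at the threshold.

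SERPINH1 encodes HSP47, the collagen chaperone of the endoplasmic reticulum, and belongs to both the heat-inducible and the ER lists. It was at 11270, 11897 and 11563 normalized counts under Olaparib and at 12304, 12566 and 12822 under DMSO, with no overlap. It was lower by a log2 fold change of -0.12 (SE 0.029, adjusted p = 0.0135), and also passed with DESeq2 (adjusted p = 0.00487) and limma voom (0.0113). In edgeR's test the adjusted p was 0.0596 without Olaparib replicate 3, 0.0756 without DMSO replicate 2 and 0.105 without DMSO replicate 3.

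The HSP70 gene with the strictest dependence on stress, HSPA6, had 4, 5 and 12 counts after Olaparib and 12, 11 and 12 in DMSO. At this depth no difference was detected and the interval was wide (log2 fold change -0.70, with a 95% interval of the percent difference from -66.3% to 11.4%, adjusted p = 0.461). BAG3, a nucleotide exchange factor that links HSP70 to autophagy, had 2095 ± 20.7 normalized counts after Olaparib and 2030 ± 60.3 in DMSO (SD, n = 3 each, adjusted p = 0.676). None of the 6 other HSP70 and HSP110 genes was called either, in a list of 7 with a median log2 fold change of -0.012.

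Lists of co-chaperones held no call. Of 9 J-domain proteins, 3 had a log2 fold change above 0 and 6 below, with a median of -0.0066. The 6 nucleotide exchange and BAG genes had a median of 0.050 and the 14 co-chaperones of HSP90 a median of 0.015. The 14 genes of TRiC, the chaperonin of the cytosol, and of prefoldin, which hands it actin and tubulin, had a median of -0.021. An unadjusted p under 0.05 in edgeR's test was found for 2 of the 9, 2 of the 6, 3 of the 14 and 1 of the 14 genes of these lists, beside 14.8% of all genes, and neither DESeq2 nor limma voom called any of them.

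Of the small heat shock proteins other than HSPB1, 4 were tested and none was called. CRYAB had 7295 ± 170 normalized counts after Olaparib and 7089 ± 274 in DMSO (SD, n = 3 each, adjusted p = 0.610), whereas HSPB8 had only 38 counts in total. HSPB3, HSPB7 and HSPB9 were listed at 0 counts in every sample, which allows up to 3 counts in a library, and CRYAA had 3 counts in total. HSPB11 was not matched to an identifier.

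The 14 other mitochondrial chaperones and proteases held no call, with 11 above 0 (10564 of the 21729 genes tested were above 0) and a median log2 fold change of 0.0099. HSPA9, the HSP70 of the matrix, had 13098 ± 132 normalized counts after Olaparib and 13424 ± 98.1 in DMSO, and its Olaparib samples were all below its DMSO samples (SD, n = 3 each, log2 fold change -0.035, adjusted p = 0.600). TRAP1, the HSP90 of mitochondria, had 7709 ± 216 and 7239 ± 190 normalized counts (SD, n = 3 each, log2 fold change 0.091, adjusted p = 0.115). Its samples were apart in the other direction, and 39% of its exonic bases are shared with DNASE1 on the other strand.

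Of 16 ER chaperones, SERPINH1 was the only gene called, beside 3.36% of all genes. An unadjusted p under 0.05 in edgeR's test was found for 5 of the 16, whereas 14.8% of all genes had one. The log2 fold changes went both ways, 9 above 0 and 7 below. They ran from -0.12 to 0.15, with a median of 0.0085. HSPA5, the HSP70 of the ER and the usual marker of the unfolded protein response, had 23209 ± 546 normalized counts after Olaparib and 24110 ± 102 in DMSO (SD, n = 3 each). Its groups did not overlap, with a log2 fold change of -0.055 (adjusted p = 0.327). HSP90B1, the HSP90 of the ER, had 57864 ± 1445 and 59046 ± 831 normalized counts (SD, n = 3 each, adjusted p = 0.681).

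Pseudogenes named after the members were counted separately. Their summed counts came to 1.09% of those of HSPD1 (18 pseudogenes), 0.469% of HSPE1 (26), 0.118% of HSPA8 (17), 0.0933% of HSP90AB1 (5), 0.0802% of HSP90AA1 (5), 0.0428% of HSPB1 (2) and 0.00356% of DNAJB1 (2). HSPD1P1 had most of those of HSPD1, with 501 ± 13.0 normalized counts after Olaparib and 488 ± 25.0 in DMSO (SD, n = 3 each, adjusted p = 0.820). No pseudogene was called. HSP90AB3P had 61.0 ± 1.50 and 82.1 ± 10.9 normalized counts with groups apart, a log2 fold change of -0.43 and an adjusted p of 0.110, and adding the pseudogene counts to the members left 0 members called. HSPA8P1, HSP90AA2P, HSPE1P2 and HSPB1P2, the pseudogenes with the most counts for their members, had adjusted p values of 0.752, 0.392, 0.891 and 0.949.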

How the data were processed

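Poly(A) RNA of 6 samples of 1 cell line was analysed, 3 per group, with groups and replicate numbers taken from the sample titles. The authors removed adapters (Trimmomatic), aligned to GRCh38 (STAR), marked PCR duplicates (Picard) and counted reads per gene (featureCounts). They deposited the raw counts, which are whole numbers. Whether duplicates were removed, the strand setting and the treatment of reads that match several genes are not given in the sources used here. The libraries were made with a stranded kit.

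Genes whose counts summed to more than 10 were kept, normalized with TMM factors and compared by edgeR's quasi-likelihood test without covariates, with Benjamini-Hochberg adjustment over all 21729 genes. A gene was called at an adjusted p under 0.05. Normalized counts are counts scaled to the mean effective library size, and intervals are 95% intervals of the fit over the samples. The limit of up to 3 counts for genes at 0 covers counting error only. Total counts per sample were 35360458 to 39640775. Ratios and sums were compared by two-sided exact permutation tests over the 6 samples. Gene coordinates and MANE Select transcripts came from GENCODE release 44, and promoter sequences from RefSeq windows of GRCh38.p14. Fits used edgeR 4.0.16, DESeq2 1.42.0 and limma 3.58.1 in R 4.3.3, and tables, tests and plots Python 3.11.15, pandas 2.3.3, scipy 1.17.1 and matplotlib 3.10.9. The test was checked on simulated counts.

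The genes named are the 10 members, the network genes called or at or under 10 counts in total, HSF1, HSF2, HSPA6, BAG3, HSPA5, HSP90B1, HSPA9 and TRAP1, for each member the pseudogene with the most counts, and the 5 genes most like the member with the smallest p in edgeR's test. HSF4, CRYAB, HSPB8 and the markers of other cell types with few counts were named after their values were seen. The members and lists, which come from general knowledge, were chosen with earlier results of these data known. The alternatives were DESeq2, limma voom, robust dispersion, size factors, upper quartile factors, 2 other filters on low counts, a fold threshold, a replicate block, added counts of HSPA1A and HSPA1B or of pseudogenes, and each sample left out in turn. The level of HSPE1 as its whole count divided by its own bases was added after the data were seen.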

Additional observations from a re-analysis of the deposited data

How the results depend on the processing

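No member was called under any setting, with adjusted p values of 0.274 or more. The median log2 fold change of the members was -0.0083 to 0.012 when each sample was left out in turn, with 0.012 without Olaparib replicate 1. The log2 fold changes of members lay so near 0 that 6 changed sign with 1 sample left out, where they ran from -0.088 to 0.024 for HSPA1A, -0.069 to 0.00065 for HSPA1B, -0.023 to 0.0064 for HSPH1, -0.041 to 0.023 for HSPB1, -0.0056 to 0.016 for HSPD1 and -0.046 to 0.0055 for HSPE1. With upper quartile factors HSPD1 was at -0.0031. Of the network genes, 3 were called, against 1 with DESeq2 (SERPINH1), 0 with a fold change above 1.2 required, and 0 to 7 with 1 sample left out (7 without Olaparib replicate 1, 0 without Olaparib replicate 3 or DMSO replicate 3, and 1 without any of the others). Over all genes the calls were 730, against 262 with the fold threshold and 398 to 870 with 1 sample left out, the lowest 439 without Olaparib replicate 3, 401 without DMSO replicate 3 and 398 without DMSO replicate 2. Settings that ended a call of HSF2, SERPINH1 or IER5 numbered 17 over these genes and left its direction as it was.

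With the replicate block, 1322 genes were called, 8 of them in the network (DNAJB2, HSF1, HSF2, IER5, MANF, SERPINH1, STIP1 and TRAP1), and 0 members. Samples with the same number were correlated in their deviations at -0.12, 0.18 and -0.19 over 13603 genes, and DMSO replicates 1 and 3 did not correlate best with their own number, so the numbers are not shown to pair the samples. The limits are those of depth and size. HSPA6, HSPB8 and the genes at 0 were too shallow for a test of any use, a single line, dose and time was measured, and RNA levels of chaperones say nothing of their protein or activity.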

Other observations

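DNAJB1 was the member with the smallest p in edgeR's test, although HSP90AA1 was with DESeq2 and limma voom. The 5 genes whose log2 profile over the 6 samples was nearest to its own, among 11987 genes with a mean of at least 100 normalized counts, were TIMM50, HINT1, PARK7, TCF3 and CAPZB. The root mean square difference from DNAJB1, on the log2 scale, was 0.0063 for TIMM50, an import receptor of the mitochondrial inner membrane, and 0.0079 for HINT1, a nucleotide hydrolase. It was 0.0080 for PARK7, the redox protein DJ-1, 0.0081 for the transcription factor TCF3 and 0.0096 for CAPZB, a subunit of the actin capping protein. Their log2 fold changes after Olaparib were 0.035, 0.033, 0.035, 0.048 and 0.046, and none was called in edgeR's test (adjusted p = 0.473 to 0.705). The profile was chosen over 6 samples and many genes, so the likeness is a description. Fold changes near that of DNAJB1 follow from this choice and are not a separate result.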
